A study of Mus musculus with 2 samples.

Results

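The nuclear genes for the subunits of respiratory chain complexes I, III and IV were examined in open chromatin maps of the mouse adrenal gland. Members were all protein-coding genes on the autosomes and X in the GENCODE M21 basic annotation (assembly mm10) whose symbol begins with Nduf, Uqcr, Cox4i, Cox5, Cox6, Cox7 or Cox8, leaving out the Ndufaf assembly factors. The rule used names alone and no measured value. It gave 64 of 21728 protein-coding genes, with 38 for complex I, 8 for complex III and 18 for complex IV. Ndufa4, now regarded as a complex IV subunit, and its relative Ndufa4l2 were counted with complex I by name.

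The respiratory chain sits in the inner mitochondrial membrane and passes electrons from NADH and succinate to oxygen while pumping protons. Complex I takes electrons from NADH, complex III passes them from ubiquinol to cytochrome c, and complex IV hands them to oxygen. Each is encoded in part by mitochondrial DNA and has many subunits encoded in the nucleus. The nuclear genes must therefore be transcribed alongside the mitochondrial ones. In the adrenal cortex, mitochondria also house steps of steroid synthesis. NRF1, GABPA (an ETS factor), YY1 and the estrogen-related receptors are factors long linked to transcription of these nuclear genes.

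In DNase-seq, nuclei are treated with DNase I, which cuts accessible DNA, and the cut sites are sequenced. Whole adrenal glands came from male mice of B6CASTF1/J, a hybrid of C57BL/6J and CAST/EiJ, with a labelled age of 8 to 10 months. They form 1 untreated group of 2 biological replicates, each a pool of 6 biosamples and 1 library. Both carry the same donor identifier in the labels, the number of animals is not given, and there is no control or second condition, so values are given per pool without a test.

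Deposited peaks numbered 117371 in replicate 1 and 146307 in replicate 2, and footprints, the short stretches protected from cutting inside open regions, numbered 272595 and 319381. Signal is the authors' value per peak, and the sources used here give neither its scaling nor the read depth of the libraries. The tissue label was checked with promoter peaks of marker genes. Peaks in both pools were present for 7 of 8 adrenal cortex markers (all but Hsd3b1, with Star at 5.44 and 6.52) and for 6 of 7 chromaffin cell markers (all but Pnmt, which had a peak in replicate 2 alone), where 62.4% of all protein-coding genes had one. The peak of the chromaffin marker Slc18a1, at 5.61 and 8.59, is the same as that of its neighbour Atp6v1b2, a proton pump gene, and cannot be assigned to either. None of 6 spermatogenic markers had a peak in either pool.

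Nearly all members had an open promoter. A promoter peak, meaning a peak that overlaps the interval within 1 kb of a transcription start site (TSS) of the gene, was found in both pools for 58 of 64 members (90.6%), whereas 62.4% of all protein-coding genes had one. By complex the counts were 37 of 38 for complex I (97.4%), 8 of 8 for complex III and 13 of 18 for complex IV (72.2%). The 6 members without a peak in both pools were Cox4i2, Cox6a2, Cox7b2, Cox8b, Cox8c and Ndufa4l2, which belong to the 8 isoforms or relatives with restricted expression. With those 8 set aside, all 56 of 56 remaining members had a promoter peak in both pools.

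The strongest promoter peak of a gene was the one with the highest signal. Its median signal among members was 4.27 and 5.67 in replicates 1 and 2 (4.97 ± 0.994, SD of the pools, n = 2), against 2.94 and 3.81 over all genes with a promoter peak (3.37 ± 0.615). Of the 58 members with a peak in both pools, 42 (72.4%) lay above the median of all such genes, 18 were among the 25% with the most signal and 2 among the 25% with the least. Members thus lay mostly in the upper part of the distribution. Over the 58 members with a peak in replicate 1 and the 60 with one in replicate 2, signal ranged from 0.981 to 12.3 in replicate 1 and from 0.328 to 14.3 in replicate 2. Signal was higher in replicate 2 for 57 of 58 members, with a median log2 difference of 0.37. The median over all genes was 0.38, and 12943 of 13560 genes were higher in replicate 2, so the members differed between the pools as the whole list did.

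**Figure D1:**
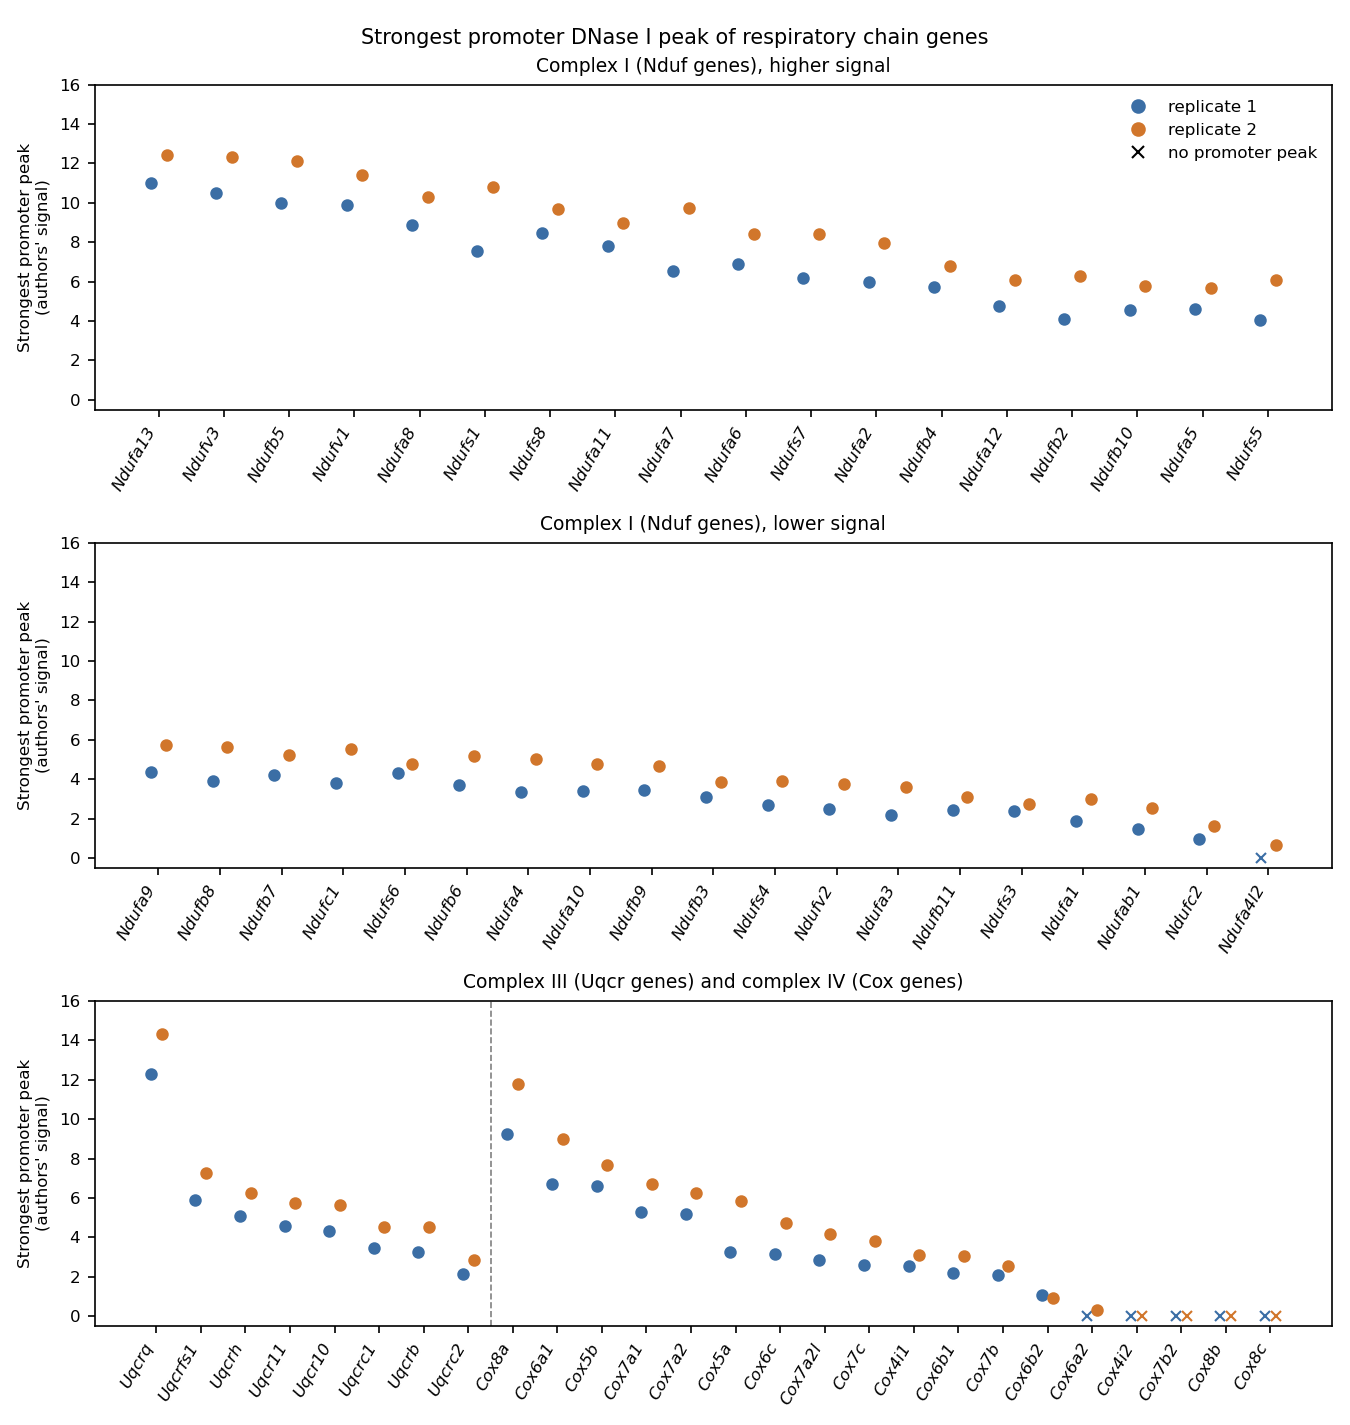
Signal of the strongest promoter peak (vertical axis, authors' signal) for member genes, 1 point per pool, ordered by mean signal within each complex, with crosses at 0 for genes without a promoter peak. Uqcrq, at 12.3 and 14.3, is the highest, and Cox4i2, Cox7b2, Cox8b and Cox8c have no peak in either pool.

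**Figure D2:**
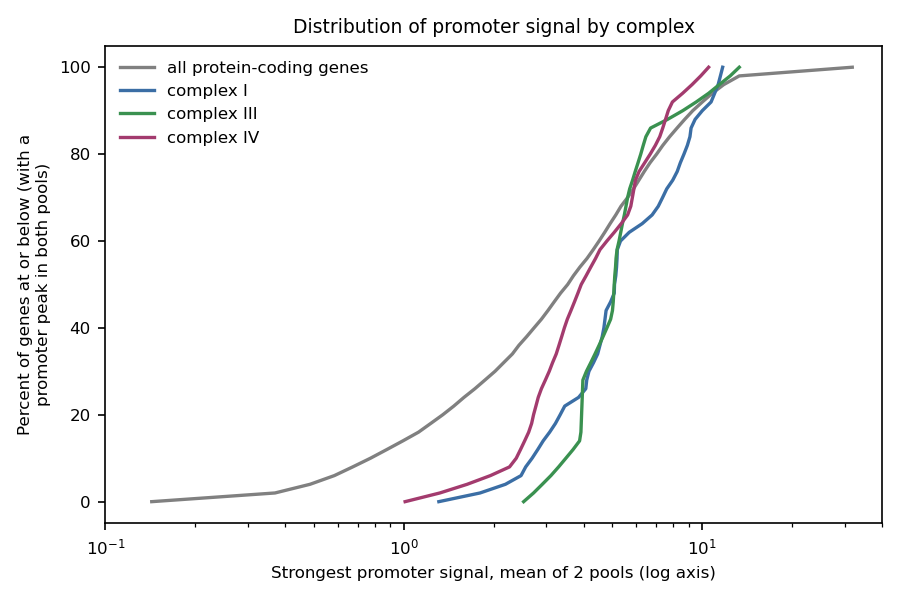
Percent of genes (vertical axis) at or below a given strongest promoter signal, averaged over the pools (horizontal log axis), for each complex and for all protein-coding genes with a promoter peak in both pools. The complex I and III curves lie to the right of the curve of all genes over most of the range, whereas complex IV lies closer to it.

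Complex I carried the most members and a wide range of promoter signal. Its median was 4.34 in replicate 1 and 5.72 in replicate 2. The 7 nuclear core subunits, which hold the NADH and quinone sites and the iron-sulfur clusters, had medians of 7.53 and 9.66, and the other complex I members had 4.15 and 5.64. The core genes did not form 1 level, because 5 of 7 were among the 25% of genes with the most signal and the other 2 were not.

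Ndufv1, whose product binds NADH and flavin, had the highest signal of the core genes, 9.89 in replicate 1 and 11.4 in replicate 2. Ndufs8, an iron-sulfur subunit near the quinone site, had 8.45 and 9.66. Both were higher in replicate 2, as was Ndufs1, the largest iron-sulfur subunit, at 7.53 and 10.8. Ndufs7, which carries the terminal iron-sulfur cluster, had 6.18 and 8.41. Ndufv2, an iron-sulfur subunit of the NADH module, had 2.49 and 3.77. Ndufs3, a subunit of the peripheral arm, had 2.39 and 2.75. Ndufv2 and Ndufs3 lay below Ndufv1, Ndufs8, Ndufs1 and Ndufs7 in both pools.

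Among the other complex I genes, the accessory subunits Ndufa13, Ndufv3 and Ndufb5 had the most signal. Ndufa13 had 11.0 and 12.4, Ndufv3 had 10.5 and 12.3, and Ndufb5 had 10.0 and 12.1. The spread among these 3 was smaller than the difference between the pools for each. At the low end stood Ndufa1 with 1.88 and 3.01, Ndufab1, the mitochondrial acyl carrier protein, with 1.46 and 2.52, and Ndufc2 with 0.981 and 1.64. Ndufc2 was also the 1 member of 58 whose strongest peaks did not overlap between the pools, with the midpoint 254 bp after a TSS in replicate 1 and 47 bp after one in replicate 2.

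Every complex III gene had a promoter peak in both pools, and 7 of 8 lay above the median of all genes. Uqcrq, a small subunit next to cytochrome b, had the most signal of all 64 members, 12.3 in replicate 1 and 14.3 in replicate 2. Uqcrfs1, the Rieske iron-sulfur protein that moves electrons to cytochrome c1, had 5.91 and 7.25. Uqcrh, the acidic hinge protein, had 5.09 and 6.26. Uqcrc1 and Uqcrc2, the large core proteins that face the matrix, were lower. Uqcrc1 had 3.44 and 4.53 and Uqcrc2, the lowest of the complex, had 2.17 and 2.88. Uqcrb, which lies at the ubiquinone site, had 3.28 and 4.54, so it did not differ from Uqcrc1 by as much as the pools did. Uqcr11 had 4.56 and 5.75 and Uqcr10 had 4.34 and 5.64.

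The Uqcrq peak lay upstream of the gene, with its midpoint at -233 bp from the TSS in replicate 1 and -213 bp in replicate 2, and its window reached into an intron of Gdf9 (a growth factor gene of the oocyte). Its window is shown because it carries the highest signal of the module. It is printed on the strand of the gene, 5′ to 3′, from chr11:53430985-53431135 (mm10, minus strand), with matches to GGGCGG (SP or KLF, here as its complement) and CACGTG (E-box) in capitals. Both SP or KLF matches and the E-box overlapped a footprint in both pools.
Uqcrq window: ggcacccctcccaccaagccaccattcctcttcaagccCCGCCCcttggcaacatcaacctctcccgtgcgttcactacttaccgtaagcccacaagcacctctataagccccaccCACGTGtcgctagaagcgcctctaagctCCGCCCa

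Complex IV had the lowest median signal of the complexes, 3.14 in replicate 1 and 4.44 in replicate 2, and 7 of its 13 members with a peak in both pools lay above the median of all genes. Cox8a, the widely expressed form of a small membrane subunit, had the most signal, 9.24 and 11.8. Cox6a1 followed with 6.69 and 8.97. Cox5b, a zinc-binding subunit on the matrix side, had 6.63 and 7.67. Cox6a1 and Cox5b were close in replicate 1 and further apart in replicate 2. The lowest of the 13 were Cox6b1, on the intermembrane side, with 2.22 and 3.07, Cox7b with 2.09 and 2.53, and Cox6b2 with 1.08 and 0.927. Cox6b2 was the 1 member with less signal in replicate 2. The widest gap between the pools was at Cox5a, with 3.27 and 5.85, a log2 difference of 0.84.

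The Cox6a1 promoter is shown as the complex IV gene of highest signal whose window holds a footprinted motif. The sequence, 5′ to 3′ on the minus strand of chr5:115348982-115349105 (mm10), ends 1 base before the annotated TSS and lies between genes. Capitals mark GCGCANGCG (NRF1) and the complement of GGGCGG (SP or KLF). The NRF1 match lay wholly inside a footprint in both pools, from 115349061 to 115349093 in replicate 1 and from 115349062 to 115349093 in replicate 2. In replicate 1 the called peak ran from 115349001 to 115349060, so the match and its footprint lay outside it. In replicate 2 the peak ran from 115348941 to 115349180 and held both.
Cox6a1 promoter: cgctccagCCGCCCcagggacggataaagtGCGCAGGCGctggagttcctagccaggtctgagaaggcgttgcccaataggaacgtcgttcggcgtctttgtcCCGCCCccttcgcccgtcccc

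Several complex IV subunits exist as a widely expressed form and a form restricted to certain tissues. The widely expressed forms all had promoter peaks in both pools. Of the restricted forms, Cox4i2 (lung), Cox7b2 and Cox8c (testis) and Cox8b (heart, muscle and brown fat) lacked a promoter peak in either pool, and no base within 1 kb of their TSSs was listed at a false discovery rate (FDR) under 0.05 for cleavage. Cox4i1, the partner of Cox4i2, had 2.55 and 3.13. Cox8a, the partner of Cox8b and Cox8c, was given above as the most open gene of the complex.

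Cox6a2, the heart and skeletal muscle partner of Cox6a1, had no peak in replicate 1 and a peak of 0.328 in replicate 2. That peak had its midpoint at -1050 bp from the TSS, upstream, and reached the promoter interval at its edge. Ndufa4l2, a relative of Ndufa4 known as a target of hypoxia signalling, had no peak in replicate 1 and 0.671 in replicate 2, over its TSS but without a footprint. Ndufa4 itself had 3.34 and 5.04. Neither Cox6a2 nor Ndufa4l2 had a base listed at an FDR of 0.001 within 1 kb of a TSS.

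Cox7a1, the muscle and brown fat form of subunit 7a, stood apart from the other restricted forms. It had 5.31 in replicate 1 and 6.69 in replicate 2, and its widely expressed partner Cox7a2 had 5.18 and 6.25. The 2 genes differed by less than the pools did. The Cox7a1 peak covered the TSS in both pools and held 5 footprints in each. The ratio of observed to expected CpG in its window was 0.498 and 0.582, against 1.16 in both pools for Cox7a2, and 11 open regions shared by the pools lay within 50 kb of its TSS at over 1 kb from any TSS, against 6 for Cox7a2. Cox6b2, the testis form of subunit 6b, also had a peak in both pools, but at 1.08 and 0.927 it was below Cox6b1 in each.

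The other tissues in which these isoforms are known were checked with their markers. Of 7 skeletal and heart muscle markers, Ckm alone had a promoter peak in both pools, and the summed signal of the list was 1.09 in replicate 1 and 1.37 in replicate 2. Of 4 brown fat markers, Cidea and Elovl3 had peaks in both pools Ucp1 had 0.230 in replicate 1 and none in replicate 2, Dio2 had none in replicate 1 and 0.208 in replicate 2, with a summed signal of 2.55 and 2.43. The defining muscle genes Acta1, Myh6, Myh7, Myl2, Tnnt2 and Tnni2 had no peak. The part of fat cells in the Cox7a1 value was not tested. In whole glands, a weaker peak in fewer cells and a weaker peak in every cell cannot be told apart.

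**Figure D3:**
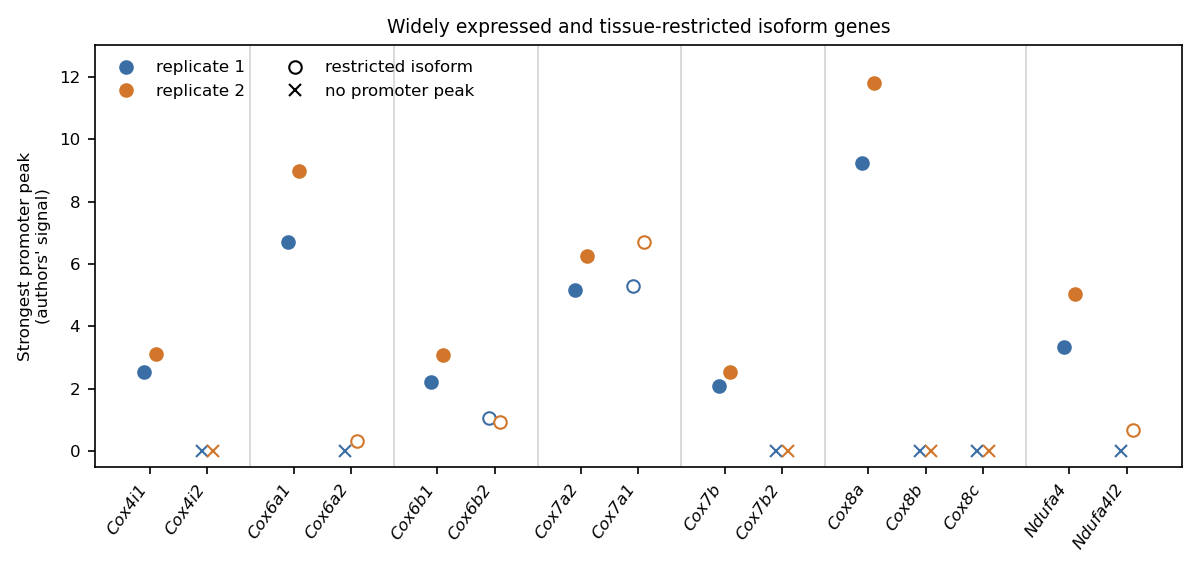
Signal of the strongest promoter peak (vertical axis, authors' signal) for widely expressed genes (filled points) and their restricted counterparts (open points), grouped by pair, 1 point per pool, with crosses for genes without a promoter peak. Cox7a1 lies at the level of Cox7a2, whereas the other restricted forms lie below their partners or have no peak.

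Members on the X chromosome, present as 1 copy in males, had low signal. The 3 X-linked members with peaks, Ndufa1, Ndufb11 and Cox7b, had medians of 2.09 and 3.01 in replicates 1 and 2, against 4.34 and 5.75 for the autosomal members. The same order held over all genes, with 1.81 and 2.17 on X and 3 and 3.89 on the autosomes. The peaks of Ndufa1 and Ndufb11 also overlapped the promoter interval of a neighbouring gene in both pools. The part of copy number in these values was not tested.

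The peaks of members were centred near the TSS. The midpoint lay a median of 47.5 bp from the nearest TSS of the gene in both pools, against 75 bp over all genes, and within 100 bp for 82.8% of members in replicate 1 and 73.3% in replicate 2 (59.9% and 59.8% of all genes). Median peak width was 240 bp for members and for all genes alike. The median number of footprints per peak was 5 in both pools for members and 4 and 5 over all genes. Scaled to width, members had 1.82 and 2.14 footprints per 100 bp, and all genes 1.79 and 1.82. Of 288 member footprints in replicate 1, 217 (75.3%) overlapped one in the other pool, and of 325 in replicate 2, 223 (68.6%) did, against 72.3% and 66.1% over all genes. Ndufv2 had 12 footprints in replicate 1 and 7 in replicate 2, Cox7a2l had 4 and 11, Ndufs7 had 5 and 11, Cox4i1 had 10 and 4, and Uqcr11 had 1 and 5. Footprint numbers of these genes, picked as extremes, thus differed more between the pools than the medians did. Peak width differed too, at 220 and 420 bp for Cox7a2l, 280 and 480 bp for Ndufs7 and 360 and 240 bp for Cox4i1. Per 100 bp, Cox7a2l had 1.82 and 2.62 footprints, Ndufs7 1.79 and 2.29 and Cox4i1 2.78 and 1.67. The Uqcr11 peak was 220 bp wide in both pools. The part of peak width in these counts was not tested.

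Members often shared their open promoter with a neighbour. In 18 of 58 members (31.0%) the strongest promoter peak also overlapped the promoter interval of another protein-coding gene in both pools, against 17.9% of all genes with a promoter peak. The share was 14 of 37 in complex I (37.8%), 3 of 8 in complex III and 1 of 13 in complex IV (7.69%). A signal in such a peak cannot be assigned to 1 gene. The shared peaks had a median signal of 4.47 and 5.67 and the unshared member peaks 4.09 and 5.75, so the 2 kinds did not keep the same order in both pools. Over all genes the shared peaks were higher in each pool, at 4.68 and 6.13 against 2.65 and 3.61.

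The functions of the partners were not tested, and those named here were chosen after they were seen. Ndufb5 shared its peak with Mrpl47 and Ndufs6 with Mrpl36, which encode proteins of the mitochondrial ribosome. Ndufs1 shared with Eef1b2, a translation elongation factor, and Ndufa7 with Rps28, a cytosolic ribosomal protein. Ndufs3 shared with Kbtbd4, Cox4i1 with Emc8, Ndufb9 with Tatdn1 and Ndufa1 with Rnf113a1. For a few members the strongest peak lay away from their own TSS. In Ndufa13 it lay at -772 bp from the TSS in replicate 1 and -762 bp in replicate 2, over untranslated sequence of Tssk6, a kinase gene known from testis. The gene whose promoter interval it overlapped in both pools was Yjefn3, and no TSS of another protein-coding gene lay in the peak. The peak within 100 bp of the Ndufa13 TSS had 1.08 in replicate 1 and there was none in replicate 2. In Uqcrh the strongest peak lay at -339 and -329 bp, over exon sequence of Lrrc41, and the peak within 100 bp of its own TSS had 3.75 and 4.66. In Ndufa11 the corresponding peak at the TSS had 3.66 and 5.18, and in Uqcr10 it had 3.23 and 4.92. The high rank of Ndufa13 therefore rested on a peak away from its own TSS.

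Motifs were searched on both strands in windows of 151 bp centred on the strongest promoter peak. NRF1 (GCGCANGCG) and YY1 (AANATGGC) were held by a larger share of members than of all genes, and SP or KLF (GGGCGG) by a smaller one. A match is a description of sequence and not evidence of binding. NRF1 was found in both pools' windows in 11 of 58 members (19%) and 9.79% of all 13560 genes with a promoter peak. YY1 was found in 12 members (20.7%) and 4.14% of all genes. SP or KLF was found in 18 members (31.0%) and 48.6% of all genes. The letters of each motif written backwards keep their base composition. For NRF1 and YY1 they do not keep the number of CpG pairs, and for YY1 they lose the ATG, so the comparison is rough. The backward letters gave 1.72% of members and 3.14% of all genes for NRF1, and 1.72% and 0.324% for YY1. For SP or KLF the backward letters GGCGGG overlap the motif itself in GGGCGGG. They gave 39.7% of members and 47.5% of all genes, so these letters too were held by a smaller share of members.

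The other motifs were held by 8 members or fewer. ETS (CCGGAAG) was held by 8 members (13.8% against 11.8%) and NFY (CCAATCA) by 4 (6.90% against 8.16%). CRE (TGACGTCA) was held by 3 (5.17% against 2.88%), E-box (CACGTG) by 2 (3.45% against 5.97%) and ZNF143 (CCCAGNATG) by 1 (1.72% against 1.32%). The motif TCAAGGTCA, which the estrogen-related receptors and the steroidogenic factor NR5A1 have in common and which cannot separate them, was in no member window and in 0.125% of all. At least 1 of NRF1, ETS and YY1 was present in 28 members (48.3%), against 23.3% of all genes. By complex that was 19 of 37 in complex I, 4 of 8 in complex III and 5 of 13 in complex IV. The ATP synthase genes, given for comparison, held NRF1 in 9 of 17.

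**Figure D4:**
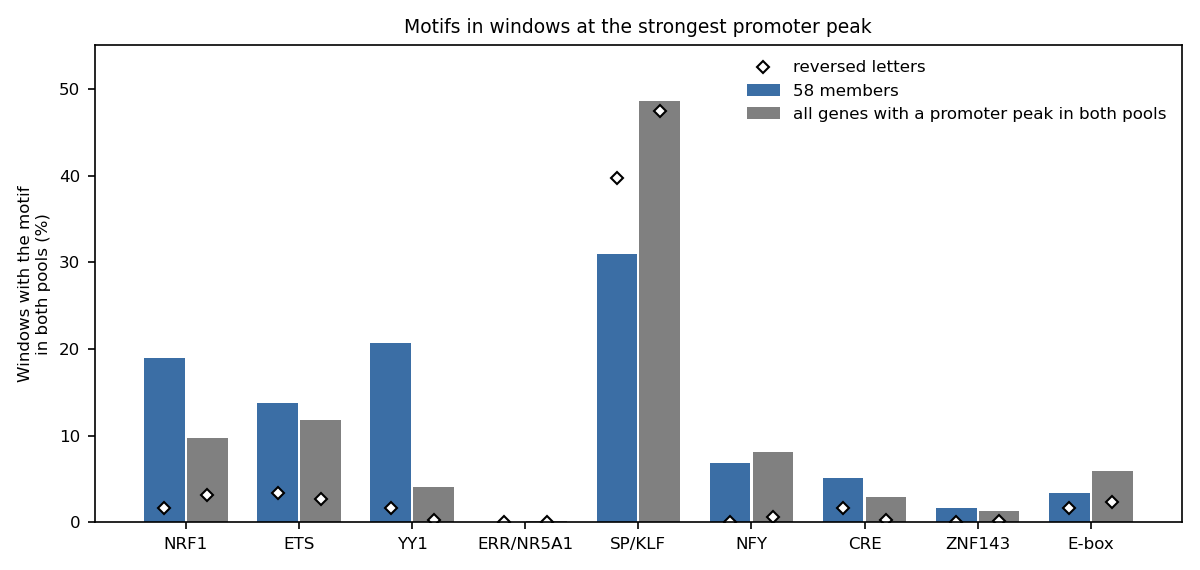
Share of genes (vertical axis, %) whose 151 bp window holds each motif in both pools, for the 58 members (blue) and all genes with a promoter peak in both pools (grey), with diamonds for the same letters backwards. YY1 stands at 20.7% in members against 4.14% in all genes, and SP or KLF at 31.0% against 48.6%.

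Every NRF1 match in members was footprinted, as were most matches over all genes. All 13 sites present in both windows, in 11 genes, overlapped a footprint in both pools, and over all genes 89.0% of 1479 sites did. Of these 13, 8 lay at or downstream of the TSS (61.5%), against 26.1% over all genes, and the median site was 10 bp downstream. The NRF1 sites of the 4 genes with the most signal are printed with 10 bases on either side, 5′ to 3′ on the strand of the match, with the match in capitals. In Ndufa13 the site is a palindrome of overlapping matches on both strands, and it lies at chr8:69903321-69903350 in the untranslated sequence of Tssk6 named above. The Ndufa8 site (chr2:36049329-36049357) and the Ndufb4 site (chr16:37654429-37654457) lie in untranslated sequence of their own genes, 63 and 10 bp downstream of the TSS. The Cox6a1 site (chr5:115349057-115349085) lies at -90 bp from the TSS.
Ndufa13 NRF1: ttgctggagaGCGCATGCGCatcctcgatt
Ndufa8 NRF1: ggtaccatctGCGCATGCGtctccagcga
Cox6a1 NRF1: cggataaagtGCGCAGGCGctggagttcc
Ndufb4 NRF1: ccttgtgcgcGCGCAGGCGcacttcctga

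The N of the NRF1 motif was T in the first 2 and G in the last 2. Ndufa8 held a second NRF1 site 43 bp downstream of its TSS, and 1 footprint in each pool, from 36049335 to 36049383 in replicate 1, overlapped both. Uqcrc1, of complex III, also held 2 sites, 25 and 49 bp downstream. The second lay wholly in a footprint in both pools, and the first was covered over 3 bases in replicate 1 and 7 in replicate 2. The remaining carriers were Ndufa5, Ndufb10, Ndufs5, Ndufs6, Uqcr11 and Cox6c.

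YY1 matches lay mostly at the start codon and were less often footprinted. Of 13 sites in 12 members, 8 overlapped the start codon (61.5%), whose ATG is part of the motif AANATGGC, against 23.6% of 585 sites over all genes. On the strand of the gene lay 10 of 13, against 63.9% over all. A footprint overlapped 5 of 13 sites in both pools (38.5%), against 41.4% over all genes. The 8 genes with the motif over the start codon were Ndufa3, Ndufa9, Ndufb8, Ndufc1, Ndufs4, Ndufs6, Uqcrb and Uqcrc1. Of these start codon sites, those of Ndufc1 and Uqcrb alone had a footprint in both pools. The Ndufa3 and Uqcrc1 sites had a footprint in 1 pool each. Those of Ndufa9, Ndufb8, Ndufs4 and Ndufs6 had none. The 4 footprinted sites printed here show both kinds of position, with the match in capitals and 10 bases on either side. In Ndufc1 (chr3:51408916-51408943) and Uqcrb (chr13:66905297-66905324) the ATG in capitals belongs to the start codon. In Ndufb5 (chr3:32736828-32736855) and Uqcrh (chr4:116075350-116075377) the match lies in untranslated sequence of the neighbours Mrpl47 and Lrrc41. The footprint covered 3 of 8 bases of the Ndufc1 match in both pools and 5 and 8 of the Uqcrb match.
Ndufc1 YY1: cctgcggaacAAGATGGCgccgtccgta
Uqcrb YY1: ctctcaggtcAAAATGGCgggccgatct
Ndufb5 YY1: gcccttactaAACATGGCcgctcccacg
Uqcrh YY1: tgacctcttcAAGATGGCggcccgcggg

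The YY1 count moved with the window. It was 4 members (6.90%, against 2.22% of all genes) with 50 bp on either side of the midpoint and 20 members (34.5%, against 8.67%) with 150 bp. From 250 bp before to 50 bp after the TSS it was 10 (17.2%, against 8.08%). The share of members was above that of all genes in each of these windows. NRF1 was held by 11, 13 and 9 members in the same windows (19%, 22.4% and 15.5%) and by 7.26%, 14.1% and 13.3% of all genes, so its member share was near that of all genes in the window set on the TSS. ETS was held by 4, 10 and 11 members (6.90%, 17.2% and 19%) and by 8.29%, 17.9% and 17.0% of all genes, and was below all genes in the first 2 of these windows. SP or KLF was held by 14, 30 and 24 members (24.1%, 51.7% and 41.4%) and by 37.2%, 65.6% and 65.2% of all genes.

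The CRE, which binds factors of the CREB and ATF family, was found in few members. Each member site had a footprint, as did nearly all sites over all genes. All 3 CRE sites lay wholly within a footprint in both pools. Over all genes 94.0% of 398 CRE sites were footprinted in both pools. The Uqcrfs1 site (chr13:30545328-30545355) and the Ndufa10 site (chr1:92473808-92473835) lie in untranslated sequence, 21 and 39 bp downstream of the TSS, and the Ndufb2 site (chr6:39592541-39592568) lies at -20 bp. Ndufa10 is an accessory subunit of the membrane arm and Ndufb2 a small membrane subunit of complex I. The sites are printed 5′ to 3′ on the plus strand with the CRE in capitals.
Uqcrfs1 CRE: gcagggtttgTGACGTCAgcgcgacgcc
Ndufb2 CRE: tgcgacgcagTGACGTCAcgggccggga
Ndufa10 CRE: cgcgctgccaTGACGTCAccactgagtg

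ETS sites were footprinted in both pools at 4 of 10 places, against 51.9% over all genes. The footprinted sites of Ndufs1 and Ndufs3 are printed as those of core subunits, 5′ to 3′ on the strand of the match with CCGGAAG in capitals. The Ndufs1 site (chr1:63176822-63176848) lies at -13 bp from its TSS in untranslated sequence of Eef1b2. The Ndufs3 site (chr2:90904732-90904758) lies 82 bp downstream of its TSS in untranslated sequence annotated to both Ndufs3 and Kbtbd4. A footprint covered the Ndufs1 site whole in both pools, but the Ndufs3 site over 3 of 7 bases in replicate 1 and 1 of 7 in replicate 2. The other footprinted sites were in Ndufb9 and Ndufa1, and all 4 genes had a promoter peak shared with a neighbour. The Ndufa1 site was covered over 5 of 7 bases in replicate 1 and 1 of 7 in replicate 2, by footprints that did not overlap each other.
Ndufs1 ETS: tgcagttccgCCGGAAGtagccgaggc
Ndufs3 ETS: ccgcgtccgcCCGGAAGaagagtcact

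Ndufv3, the complex I gene of second highest signal, held the 1 ZNF143 site present in both windows, at -36 bp from its TSS at chr17:31520065-31520093. It lay wholly within a footprint from 31520075 to 31520098 in replicate 1 and from 31520074 to 31520099 in replicate 2. Capitals mark CCCAGNATG, and over all genes 45.9% of 181 such sites were footprinted in both pools.
Ndufv3 ZNF143: aaggagccctCCCAGAATGcgcgcgcaaa

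**Figure D5:**
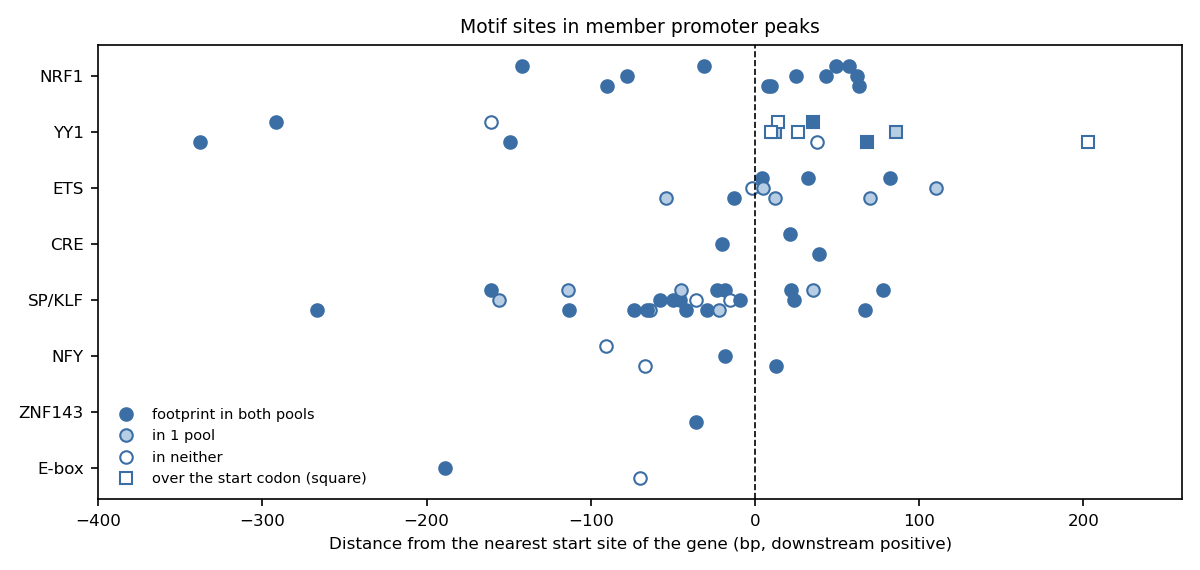
Position of motif sites in member windows relative to the nearest TSS of the gene (horizontal axis, bp, downstream positive), by motif, filled where a footprint overlapped the site in both pools, pale where in 1 pool and open where in neither, with squares for sites over the start codon. Sites over 400 bp upstream are not drawn. The NRF1 sites are all filled, and 8 of 13 YY1 sites are squares.

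The printed letters are those of the C57BL/6J reference, whereas the mice also carried CAST/EiJ chromosomes, whose letters were not analysed here. Motifs accounted for a minority of the protected stretches. Of 165 member footprints inside the windows in replicate 1, 44 overlapped any of the 9 motifs (26.7%), and of 184 in replicate 2, 54 did (29.3%). Over all genes the shares were 29.6% and 30.5%. In complex III they were 47.6% of 21 and 50% of 22. The windows of members had a median GC content of 61.6% in both pools, against 64.2% over all genes, and a CpG ratio of 0.897 and 0.868 against 0.799 and 0.801.

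The other genes of oxidative phosphorylation were open to a like extent. All 4 complex II genes, both electron carrier genes, all 17 ATP synthase genes and all 8 complex I assembly factors had promoter peaks in both pools. Shared peaks were found here too, so some of these signals cannot be assigned to 1 gene. They numbered 3 of 4 in complex II, 6 of 17 in ATP synthase and 4 of 8 in the assembly factors. Neither electron carrier gene had one, and 18 of 58 members did. ATP synthase had median signals of 5.28 and 6.57, from Atp5a1 (the alpha subunit) at 2.73 and 3.95 to Atp5g1 (a gene for the c ring) at 15.7 and 17.8. Assembly factors had 4.64 and 6.87. Cycs, cytochrome c, had 9.18 and 10.6, whereas Cyc1, the cytochrome c1 of complex III, had 1.96 and 2.83. Cyc1 was below all 8 complex III members in both pools, with Uqcrc2 the nearest.

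All 10 genes for factors that regulate mitochondrial genes had promoter peaks in both pools, over a wide range. Esrra, the estrogen-related receptor alpha, had 16.1 and 18.4. Ppargc1a, a coactivator induced by cold and exercise, had 0.379 and 0.504, the lowest of the list in both pools. Yy1 had 7.19 and 9.61, Gabpa 5.74 and 6.57, Nrf1 2.51 and 3.61, and Tfam, the mitochondrial transcription factor, 5.37 and 7.11. The Gabpa values were also those of Atp5j, an ATP synthase gene, and 1 of the 10 genes had a shared peak. A signal in a shared peak cannot be assigned to 1 gene. An open promoter gives no protein level.

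Members without a peak also lacked listed cleavage, as did most genes without a peak. The FDR table lists intervals of significant cleavage whether or not a peak was called. The median member had 870 bases at an FDR under 0.05 within 1 kb of a TSS in replicate 1, and 1034 in replicate 2. Over all genes it was 504 and 685, a median that includes 7697 and 7230 genes with no listed base. Among genes with an unshared promoter peak in both pools, members had 862 and 1000 and all genes 907 and 1129. The 6 members without any listed base in replicate 1 and the 4 in replicate 2 were those without a peak in that pool. Of all 21728 genes, 13781 had a promoter peak in replicate 1 and 14298 in replicate 2. Lack of listed bases thus largely repeated the lack of a peak and is not separate evidence.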

How the data were processed

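Per pool, 2 peak lists, a footprint list and an FDR table on mm10 (GRCm38) were deposited by the authors. Per the labels and readme texts these derive from the filtered alignments of 1 library each, which means that no peak list joins the pools. The sources used here name no aligner, caller or threshold. The deposited signal per peak ranks peaks within a list, and every value was a whole multiple of 0.00743 in replicate 1 and 0.00799 in replicate 2 (tolerance 0.05 of a step). The deposited FDR, an adjusted p-value, is listed only under 0.05. The deposited footprint value is 1 constant, so presence was used.

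The longer list was the main one. Overlaps needed at least 1 bp. Gene models and sequence were GENCODE M21 basic and the mm10 genome, and 1642 of 1642 sampled RefSeq promoters equalled it. Overlapping matches of 1 motif were merged. Counting was tested on simulated data (Python 3.11.15, numpy 2.4.6, pandas 2.3.3, pysam 0.24.0).

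Members, lists, motifs and the rule for named genes (core subunits, isoform pairs, the 3 highest and 3 lowest per complex, members without a peak in both pools, those with printed sequence) were chosen with earlier results of these data known. Shared partners, Cox5a and footprint extremes, the pathway genes shown and start codon positions were picked after their values were seen. Alternatives were the shorter list, other promoter and motif windows, other member sets and each pool alone. Values of 1 member are not reported here, and it is not drawn, but it is counted in the totals and medians.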

Additional observations from a re-analysis of the deposited data

How the results depend on the processing

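Open promoters in both pools were found for 58 members, a count that ranged from 56 to 60 over the alternatives. The 56 came from a smaller member set, without Ndufa4l2, Ndufab1 and Cox7a2l, and not from lost peaks. It was 57 with the shorter list, which lost Ndufc2, and 60 within 2 kb, which gained Cox6a2 and Ndufa4l2. The share of all genes moved as well, from 62.4% to 57.1% with the shorter list and to 65.1% within 2 kb. The median member signal of 4.97 ranged from 4.27 to 5.67 between the pools taken alone, and the shared promoter count of 18 from 18 to 21. The median number of footprints, 5 in each pool alone, was 5.25 with the shorter list, 4.50 counting footprints wholly inside the peak and 5.50 over all promoter peaks. The cause was not tested. Motif counts moved with the window by over 1.5 times for ETS (4 with 50 bp), YY1, SP or KLF, NFY (1 with 50 bp) and ZNF143 (2 with 150 bp or in replicate 2 alone). Moving Ndufa4 and Ndufa4l2 to complex IV gave 36 of 36 and 14 of 20. No paired analysis was possible because there is 1 group. The unknown depth limits the reading of absent peaks.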

Other observations

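Open regions away from promoters were counted within 50 kb of each member, at over 1 kb from any TSS and present in both pools. Members had a median of 4 such regions and all genes 3, and a region was not assigned to a gene. The figure for all genes includes those without a promoter peak. Among genes with a shared promoter peak in both pools, the median was 4 for members and for all genes. Among those with an unshared peak it was 3.50 for members and 4 for all genes. Cox4i2, which had no promoter peak, had 13 of them, the highest number among members, which Uqcr10 and Uqcr11 also reached. Ndufa4l2, with a promoter peak in replicate 2 alone, had 9.

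The strand of the SP or KLF motif was uneven in members. GGGCGG lay on the strand of the gene at 5 of 25 sites (20%), against 53.1% of 9698 sites over all genes with a promoter peak, with 18 member genes behind the sites. This was noticed after the values were seen and was not tested.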
